A study of Mus musculus with 12 samples.

Results

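Opn3 and Opn5, genes of opsins outside the visual pathway, and Chml, whose span lies inside that of Opn3, were followed in Min6 cells, an insulin-producing line from a mouse insulinoma that serves as a model of pancreatic beta cells. The members were the rows of the deposited table, each a probe set with 1 value per array, whose platform annotation gives exactly 1 gene symbol equal to Opn3, Opn5 or Chml. They were chosen by their measured differences between the 3 culture conditions, so these levels and differences are descriptions without a test. All 3 genes have such a row, 1 each, among 19938 genes and 35556 rows in all, and no filter removed any of them.

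Gene expression was measured on Affymetrix arrays after 3 culture periods of 5 days, with 4 arrays per condition and 12 in all. Cells under classic conditions (CC) stayed in DMEM with 15% fetal calf serum at 20% oxygen. Cells under defined conditions (DC) spent the last 10 days without serum at 5% oxygen, in DMEM-F12 with apo-transferrin, progesterone, putrescine and selenite. Cells under the return condition (RC) had 5 days in that serum-free medium and low oxygen and then 5 days back in serum at 20% oxygen. All cells had a first period in serum at 20% oxygen. Serum, oxygen, basal medium and supplements changed together, and DC and RC also differ in the length of the serum-free time. The 4 samples of a condition came from a single experiment with a single cell line, so errors and p-values reflect only how far these samples spread, which may be technical.

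Opsins are membrane receptors that hold retinal, a form of vitamin A, as a light-absorbing group and signal through G proteins. Opn3 (encephalopsin) and Opn5 (neuropsin) belong to the nonvisual members of the family, found in brain, skin and other tissues, and Opn5 absorbs ultraviolet and violet light. Chml encodes Rab escort protein 2, a relative of Chm. Rab escort proteins carry newly made Rab GTPases to the enzyme that attaches their geranylgeranyl lipids, and Rab GTPases of secretory cells act in the transport and release of granules.

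Windows at the annotated starts of Opn3 and Chml are shown because both genes lie at the same locus of chromosome 1 while these windows differ in composition. The sequences are those of RefSeq on GRCm38.p6, from 250 bases before to 50 bases after the annotated start, and 2 of the 3 members are in that table (Opn5 is not). Both windows lie on the minus strand and are written 5′ to 3′, with capitals at every match, on either strand, to GGGCGG (the GC box), ACGTG and GCGTG (cores of hypoxia response elements).
Opn3, chr1:175692583-175692882: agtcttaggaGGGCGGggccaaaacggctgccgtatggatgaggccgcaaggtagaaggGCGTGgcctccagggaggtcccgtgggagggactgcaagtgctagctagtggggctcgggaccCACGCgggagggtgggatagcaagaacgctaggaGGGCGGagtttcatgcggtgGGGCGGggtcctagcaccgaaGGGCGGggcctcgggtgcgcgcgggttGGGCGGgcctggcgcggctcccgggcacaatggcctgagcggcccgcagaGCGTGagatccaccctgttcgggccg
Chml, chr1:175688304-175688603: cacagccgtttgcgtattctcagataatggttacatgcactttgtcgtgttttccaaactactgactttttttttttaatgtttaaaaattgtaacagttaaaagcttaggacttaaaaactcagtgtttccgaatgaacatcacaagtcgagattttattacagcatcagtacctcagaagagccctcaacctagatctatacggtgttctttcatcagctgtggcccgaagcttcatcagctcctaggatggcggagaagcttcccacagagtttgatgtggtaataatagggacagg

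The Opn3 promoter holds 70% G and C and 28 CpG dinucleotides, against medians of 52.7% and 7 over the 32841 promoters of this length. The Chml window holds 40.3% and 8. GGGCGG occurs 5 times in the Opn3 window and 0 times in the Chml window, and 35.7% of all promoters hold it. GCGTG, found in 32.4% of all promoters, occurs 3 times in the Opn3 window and 0 times in the Chml window. ACGTG (19.6% of all promoters), the E-box CACGTG, which contains ACGTG (7.15%), and the cAMP response element TGACGTCA (1.79%) occur in neither. These matches describe letters and are not measured binding sites. The annotated start of Chml lies 4.28 kb downstream of that of Opn3 on the same strand. It falls on an ATG, and the bases after it in the window hold no stop codon in that frame. It may thus be a start codon rather than a mapped start of transcription, which was not tested. The Chml window may therefore not be the promoter, and its contrast with the Opn3 window is one of annotated windows. The sources used here give neither the genome build nor the probe positions of the deposited table, and whether the probes of one gene read RNA of the other was not tested.

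The array medians lay between 7.92 and 8.05 on the log2 scale. RC 3 stood apart, with a mean correlation of 0.976 with the other RC arrays, against 0.989 to 0.990 for each of those. The CC arrays fell into the pairs CC 1 with CC 2 and CC 3 with CC 4 (correlations of at least 0.996 within and up to 0.994 across the pairs). The beta cell identity of the cultures was seen in Ins2 (13.03 ± 0.03 under CC, 13.05 ± 0.04 under DC and 13.02 ± 0.05 under RC; SD, n = 4), Iapp (13.86 ± 0.03, 13.76 ± 0.04 and 13.85 ± 0.10) and the transcription factor Pdx1 (11.72 ± 0.11, 11.62 ± 0.05 and 11.71 ± 0.14). The table has no detection calls, so a level cannot be set against background. In bulk RNA, fewer cells expressing a gene and less of its RNA per cell cannot be told apart.

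Opn5 was low in DC and back at the CC level in RC. Its probe set (10450968) read 11.23, 11.26, 11.08 and 11.08 on the 4 CC arrays, 9.63, 9.06, 9.15 and 9.54 on the DC arrays, and 11.27, 11.44, 11.04 and 11.36 on the RC arrays. Every DC array lay below every array of the other conditions, and the CC and RC arrays overlapped. The means were 11.16 ± 0.10 under CC, 9.34 ± 0.28 under DC and 11.28 ± 0.17 under RC (SD, n = 4).

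The log2 difference of Opn5 was -1.82 ± 0.13 for DC against CC (SE, a 3.52-fold lower level) and 1.93 ± 0.13 for RC against DC (3.82-fold higher). The second is the largest difference in either direction among the 35556 rows for RC against DC, and the first ranks 8 among falls for DC against CC. The comparisons share the DC arrays, so a low DC level enters both. For RC against CC the difference was 0.12 ± 0.13, with a 95% interval of -0.16 to 0.40, and without RC 3 it was 0.20. The pairs of CC arrays were visible in this gene, CC 1 and CC 2 being above CC 3 and CC 4. With either pair left out, DC against CC gave -1.73 and -1.90.

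Opn3 had the same order of condition means as Opn5, but here RC stood apart, above both CC and DC. Its probe set (10360454) read 9.79, 9.81, 9.75 and 9.72 in CC, 9.68, 9.59, 9.89 and 9.04 in DC, and 10.65, 10.48, 10.56 and 10.66 in RC. All RC arrays were above all others, and the CC and DC arrays overlapped, DC 3 being above every CC array and DC 4 the lowest of all arrays. Means were 9.77 ± 0.04 under CC, 9.55 ± 0.36 under DC and 10.59 ± 0.08 under RC (SD, n = 4).

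The level of Opn3 was higher in RC than in CC by 0.82 ± 0.14 on the log2 scale (SE, 1.77-fold) and higher in RC than in DC by 1.04 ± 0.14 (2.05-fold). Ranked among all rises for RC against CC, the former is number 9. The difference of DC from CC, -0.22 ± 0.14, had a 95% interval of -0.52 to 0.09 and rested mostly on DC 4, without which it was -0.04. Without DC 4 the difference between RC and DC was 0.86. Leaving out RC 3 gave 0.83 against CC and 1.04 against DC.

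Chml had the same order of condition means as Opn3 and Opn5, and RC stood apart as for Opn3, with smaller differences from CC and DC. Its probe set (10360460) read 9.37, 9.50, 9.17 and 9.18 in CC, 9.23, 9.02, 9.05 and 8.99 in DC, and 9.81, 9.90, 9.56 and 9.80 in RC. RC arrays were again above all others, with RC 3 the lowest of them, and DC 1 overlapped the CC arrays. The means of 9.30 ± 0.16, 9.07 ± 0.10 and 9.77 ± 0.15 (SD, n = 4) for CC, DC and RC gave differences of 0.46 ± 0.10 for RC against CC (SE, 1.38-fold), 0.69 ± 0.10 for RC against DC (1.62-fold) and -0.23 ± 0.10 for DC against CC. Without RC 3 the first of these was 0.54 and the second 0.76. The DC difference depended on which pair of CC arrays was kept, at -0.10 without CC 1 and CC 2 and -0.36 without CC 3 and CC 4.

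**Figure D1:**
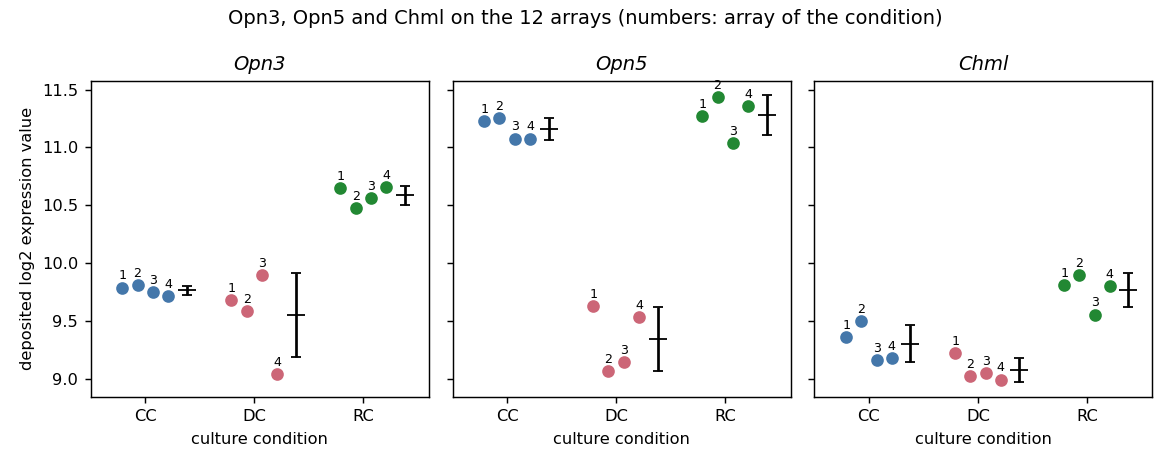
Deposited log2 expression values (vertical axis) of Opn3, Opn5 and Chml on each of the 12 arrays, by culture condition (horizontal axis; 1 point per array, numbered), with the mean and SD of 4 arrays in black. The 4 DC arrays are the lowest for Opn5, at 9.06 to 9.63, while for Opn3 and Chml the 4 RC arrays are the highest, at 10.48 to 10.66 and 9.56 to 9.90.

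The groups did not overlap for 3 of 3 members in RC against DC, all higher in RC, where 3.06% of all rows were higher in RC without overlap. For DC against CC this held for 1 of 3 (Opn5, lower; 7.96% of all rows), and for RC against CC for 2 of 3 (Opn3 and Chml, higher; 2.49% of all rows). The members were chosen with these differences known, and nothing is read from the counts. No alternative normalization, choice of arrays or block changed the sign of any of the 9 differences. Some of these could not change it, since the block and leaving out arrays of the condition not compared leave a difference of means as it is.

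**Figure D2:**
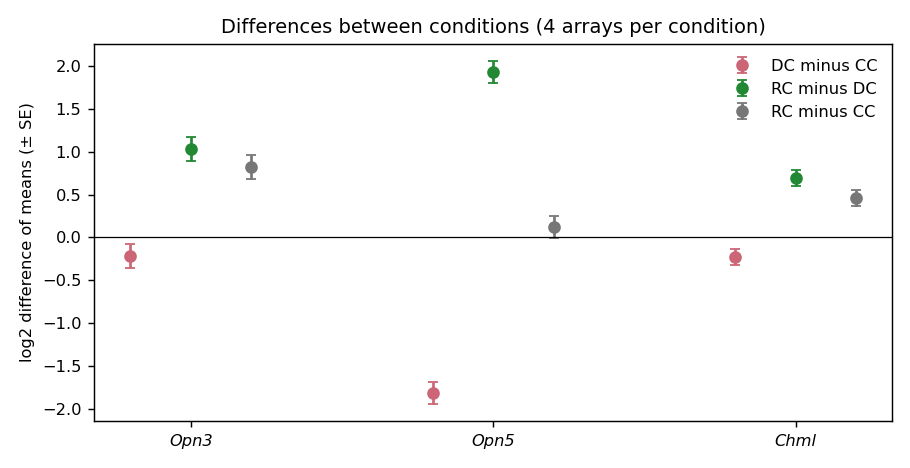
Log2 differences between condition means (vertical axis) of Opn3, Opn5 and Chml (horizontal axis), with moderated standard errors as bars, from 4 arrays per condition. Opn5 is at -1.82 for DC minus CC and 0.12 for RC minus CC, whereas Opn3 and Chml are at 0.82 and 0.46 for RC minus CC.

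Within the shared locus, the gap between Opn3 and Chml on the same array (log2 of Opn3 minus log2 of Chml) was 0.46 ± 0.12 in CC and 0.48 ± 0.33 in DC, and 0.82 ± 0.18 in RC (SD, n = 4). The mean gap was wider in RC, by 0.35 against CC and by 0.34 against DC. The gaps of single RC arrays overlapped those of CC and of DC, and DC 4 had the smallest gap. Without DC 4, RC was higher than DC by 0.86 for Opn3 and by 0.67 for Chml. Over the 12 arrays the values of the 2 genes correlated with r = 0.88, and after subtraction of the condition means with r = 0.24. For Opn5 with Chml these values were 0.76 and 0.67, and for Opn5 with Opn3 they were 0.61 and -0.35. The largest deviations of Opn3 from its condition means were -0.51 on DC 4 and 0.34 on DC 3. Its r of 0.24 and -0.35 after subtraction thus rest largely on these arrays. The points of each correlation share their arrays, and the coefficients are descriptions.

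The genes beside the members were taken in the order of the RefSeq gene table, as the 5 nearest protein-coding genes with a row of their own on each side, and tested with limma over all rows (adjusted p under 0.05 by Benjamini-Hochberg). Of all rows, 6.64% passed in the comparison of DC with CC, 2.63% in that of RC with DC and 0.796% in that of RC with CC. Of the 10 genes around Opn5, 1 was lower in DC than in CC and higher in RC than in DC, and the remaining 9 did not pass in either comparison. It was Ptchd4, which encodes a patched-domain membrane protein and is the immediate neighbour of Opn5 with no annotated gene between them.

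Ptchd4 read 10.37, 10.41, 10.44 and 10.43 in CC, 9.08, 8.69, 8.79 and 8.98 in DC, and 10.11, 10.17, 10.02 and 10.22 in RC (probe set 10445237). As for Opn5, all DC arrays were below all others, but the RC arrays were also below the CC arrays. Ptchd4 fell by 1.52 ± 0.08 on the log2 scale in DC (2.87-fold; SE from 4 arrays per group; limma adjusted p = 9.7e-07) and was higher in RC than in DC by 1.24 ± 0.08 (2.37-fold; limma adjusted p = 1.4e-05). For RC against CC it was at -0.28 ± 0.08, which did not pass (limma adjusted p = 0.20). A second probe set of Ptchd4 gave -0.88 for DC against CC (limma adjusted p = 1.0e-05) and 0.69 for RC against DC (limma adjusted p = 0.00015). The calls of the first probe set held in each alternative run.

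Over the 12 arrays Opn5 and Ptchd4 correlated with r = 0.97, and after subtraction of the condition means with r = 0.88. Among the 4 DC arrays both genes had the order DC 1, DC 4, DC 3, DC 2 from high to low. RC 3, the array that stood apart, was the lowest RC array for both. It was also the lowest for Chml and for Pld5, Exo1 and Akr1c18, described below, but not for Opn3 or Wdr64. Opn5 and Chml, on different chromosomes, had r = 0.67 after the same subtraction. No background of such r over other genes is given here. On the other side of Opn5, the adhesion receptor gene Adgrf4 read 6.06 ± 0.06 under CC, 6.16 ± 0.10 under DC and 6.09 ± 0.06 under RC (SD, n = 4), and did not pass in any comparison.

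**Figure D3:**
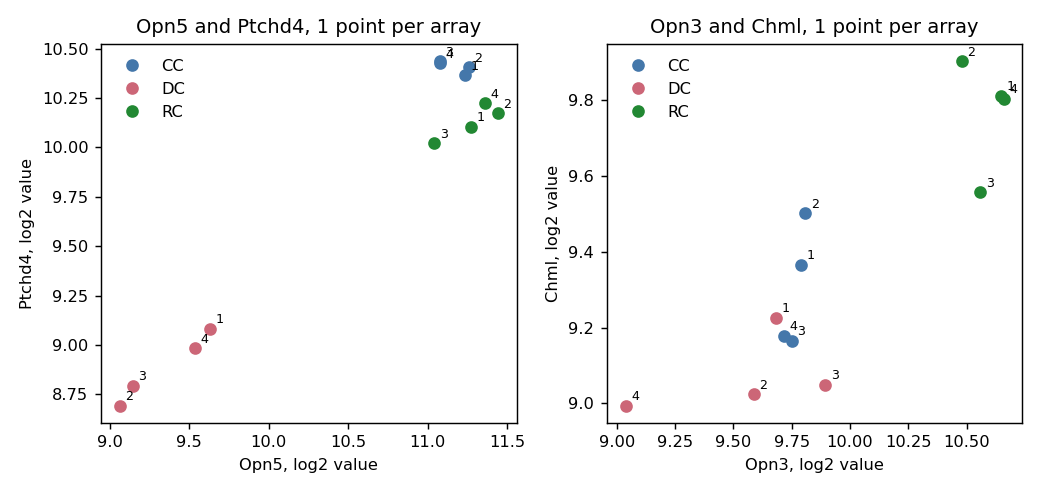
Log2 values of Opn5 against Ptchd4 (left) and of Opn3 against Chml (right), 1 point per array, coloured by condition and numbered by array. Opn5 and Ptchd4 separate the DC arrays from the rest and keep the same order within DC. After subtraction of condition means r was 0.88 for them and 0.24 for Opn3 and Chml, and 0.67 for Opn5 and Chml (not drawn), which lie on different chromosomes. The value of 0.24 rests largely on DC 3 and DC 4, where Opn3 lay furthest from its condition mean.

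Of the 10 genes around Opn3 and Chml, 2 fell and 1 rose in DC against CC, 2 rose in RC against DC, and 1 rose and 1 fell in RC against CC. Pld5, of the phospholipase D family, fell from 10.22 ± 0.03 in CC to 9.19 ± 0.06 in DC and was at 9.79 ± 0.08 in RC (SD, n = 4; limma adjusted p = 1.0e-06, 0.00013 and 0.0066 for DC against CC, RC against DC and RC against CC). Its call for RC against CC was lost with either pair of CC arrays left out. Exo1, an exonuclease of DNA repair, fell by 0.50 ± 0.09 in DC (limma adjusted p = 0.0036) and was higher in RC than in DC by 0.39 ± 0.09 (limma adjusted p = 0.034). Its fall was lost with CC 1 and CC 2 left out (-0.39; limma adjusted p = 0.069). The immediate neighbours were Kmo, the kynurenine monooxygenase, which did not pass in any comparison, and Wdr64. Wdr64 rose by 0.33 ± 0.07 in DC and was higher in RC than in CC by 0.36 ± 0.07 (limma adjusted p = 0.0089 and 0.032). The rise of Wdr64 in DC was lost with CC 1 and CC 2 left out (0.28; limma adjusted p = 0.14).

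Of the neighbours that passed, Wdr64 alone was higher in RC than in CC, as Opn3 and Chml were, and its RC and DC levels were 7.64 ± 0.05 and 7.61 ± 0.12 (SD, n = 4). Its call for RC against CC was lost without any one of CC 1, CC 2, CC 3, CC 4, RC 1, RC 2 or RC 4 and with quantile normalization, with limma adjusted p up to 0.11. The call of Exo1 for RC against DC was lost without any one of CC 1, DC 2, DC 3, RC 1, RC 2 or RC 4, with limma adjusted p also up to 0.11, and with centring or only DC and RC in the fit.

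**Figure D4:**
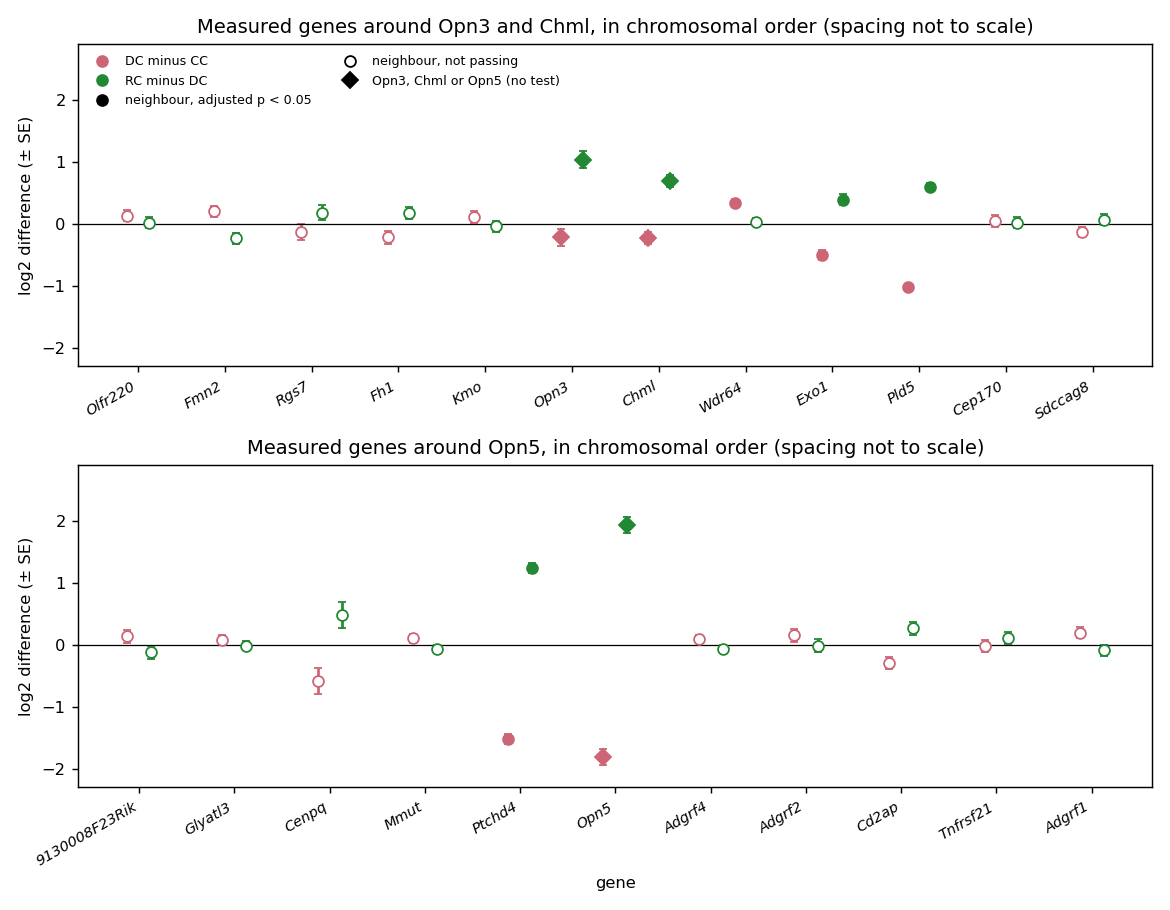
Log2 differences (vertical axis, bars are SE) for DC minus CC and RC minus DC of the measured genes around Opn3 and Chml (top) and around Opn5 (bottom), in chromosomal order. Filled circles passed limma at an adjusted p under 0.05, open circles did not, and diamonds are the members, which have no test. Ptchd4, at -1.52 and 1.24, is the only tested neighbour of Opn5 that passed.

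The genes whose values were most like those of each member were ranked by Pearson correlation over the 12 arrays among 17210 other genes. For Opn5 they were the potassium channel gene Kcnk10 (r = 0.98), the calcium buffer Calb1 (0.98), the matrix protein gene Tnc (0.98), Rasal2 (0.98) and Tmc3 (0.98). Their DC against CC differences ran from -0.62 for Kcnk10 to -1.68 for Calb1, against -1.82 for Opn5. For Opn3 they were Arhgap24 (r = 0.98), the heparan sulfate sulfotransferase gene Hs3st2 (0.95), the tachykinin precursor gene Tac1 (0.95), Fam78b (0.94) and the steroid dehydrogenase gene Akr1c18 (0.94). For Chml they were Cpeb2 (r = 0.98), Ankrd28 (0.96), Akr1c18 (0.95), the citrate cycle gene Idh3a (0.94) and Rbms3 (0.94).

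Akr1c18, whose enzyme breaks down progesterone, stood in the lists of both Opn3 and Chml. It read 7.77 ± 0.20 under CC, 7.19 ± 0.40 under DC and 8.98 ± 0.28 under RC (SD, n = 4), the same order of conditions with wider steps. That order follows largely from its choice by correlation with Opn3 and Chml over these same arrays. Its RC against CC difference was 1.21, compared with 0.82 for Opn3 and 0.46 for Chml. In these rankings Chml was number 22 for Opn3, and Opn3 was number 36 for Chml. In the ranking for Opn5, Opn3 stood at number 1926 (r = 0.61) and Chml at number 756 (r = 0.76).

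Other opsins were measured by 5 genes (1 further listed gene was not analysed here). Means ± SD over 4 arrays were 6.77 ± 0.05 under CC, 6.87 ± 0.14 under DC and 6.81 ± 0.08 under RC for the short-wave cone opsin Opn1sw, and 7.14 ± 0.11, 7.28 ± 0.09 and 7.28 ± 0.18 for the middle-wave cone opsin Opn1mw. Melanopsin, Opn4, read 7.60 ± 0.19, 7.83 ± 0.12 and 7.80 ± 0.22 in the same order. Peropsin, Rrh, read 6.60 ± 0.04, 6.73 ± 0.12 and 6.63 ± 0.08, and the retinal G protein-coupled receptor Rgr 7.24 ± 0.15, 7.39 ± 0.08 and 7.35 ± 0.28. By limma, 0 of 5 passed in any comparison, and 0 reached an unadjusted p under 0.05. Their differences from CC ran from 0.10 to 0.22 in DC and from 0.03 to 0.20 in RC, and those of RC from DC lay between -0.10 and -0.003. No rise of these opsins in DC was thus shown, and differences of this size were not particular to them. Markers of photoreceptor and pigment cells ran from 0.13 to 0.22 in DC against CC. Those of fibroblast, endothelial and immune cells ran from 0.07 to 0.22, and exocrine and ductal ones from 0.08 to 0.22. Beta cell and other islet markers went both ways (-0.13 to 0.31 and -1.26 to 0.16).

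Further lists covered what opsins and Rab escort proteins work with, 149 measured genes in all including the opsins above. Compared with CC, 7 were higher and 11 lower in DC (12.1% passing, against 6.64% of all rows) and 2 and 2 in RC (2.68%, against 0.796%). Compared with DC, 4 were higher and 6 lower in RC (6.71%, against 2.63%). Their median differences were 0.06 for DC minus CC, 0.04 for RC minus CC and -0.02 for RC minus DC, beside 0.04, 0.03 and -0.01 over all rows. These shares are of unlike sets. Each listed gene has 1 row, its brightest, and the lists were chosen with earlier results known, while 12146 of all rows carry no symbol. With dim rows left out, 18 of 88 related genes and 2678 of 18486 rows passed for DC against CC. Whether the lists differ from all rows was not tested. The lists and Opn5, Opn3 and Chml were not compared by a test.

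Of 24 phototransduction genes, 1 was lower in DC than in CC, 0 passed when RC was compared with DC and 0 when it was compared with CC (by limma; 1 and 0 at an unadjusted p under 0.05). The median difference in DC was 0.11. Rgs9, which speeds up the switching off of G proteins in photoreceptors and brain, was at 11.40 ± 0.07 under CC, 11.10 ± 0.16 under DC and 11.32 ± 0.06 under RC (SD, n = 4), a fall of 0.30 ± 0.08 in DC (SE; limma adjusted p = 0.039). With single arrays left out in turn its call held only without DC 4 or RC 3, with limma adjusted p up to 0.12, and it was lost with quantile normalization and with only CC and DC in the fit. Of the photoreceptor genes that did not pass, the phosphodiesterase subunit gene Pde6b was at 0.18 and the calcium sensor gene Rcvrn (recoverin) at 0.24 for RC against CC, and the channel subunit gene Cngb3 at -0.08 for RC against DC.

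Of 27 genes that bind, convert or break down retinoids, 1 rose and 3 fell in DC, with a median of 0.09. Retsat, a retinol saturase, fell by 0.59 ± 0.09 (SE, n = 4 per group; limma adjusted p = 0.0019). Rdh12 and Rdh10, retinol dehydrogenases, fell by 0.46 ± 0.07 and 0.27 ± 0.07 (limma adjusted p = 0.0019 and 0.049), and Rbp3, a retinoid carrier of the retina, rose by 0.47 ± 0.09 (limma adjusted p = 0.0062). The call of Rdh10 held only without CC 4 or RC 3 when single arrays were left out, and was lost with quantile normalization. With CC 1 and CC 2 left out the call of Rbp3 was lost too (limma adjusted p = 0.097). Rbp3 (6.73 in CC and 7.20 in DC) and Rdh12 (7.69 and 7.23) were dim, below the median of all values, 7.99. The filter on dim rows removed both.

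Retsat read 7.98 ± 0.16 in DC and 7.98 ± 0.05 in RC against 8.56 ± 0.16 in CC (SD, n = 4), so it was as low in RC as in DC, and it was the 1 retinoid gene that passed for RC against CC (-0.58 ± 0.09; limma adjusted p = 0.016, lost without RC 1, with CC 1 and CC 2 left out and with CC 3 and CC 4 left out). Rbp3 was the 1 that passed for RC against DC (-0.44 ± 0.09; limma adjusted p = 0.018, lost without any one of DC 2, DC 3, RC 1, RC 2 or RC 4 and with only DC and RC in the fit).

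Of 45 genes of G protein and cAMP signalling, 2 rose and 6 fell in DC, 3 were higher and 1 lower in RC than in DC, and 1 was lower in RC than in CC. The median differences were -0.06, 0.01 and -0.01. Rgs4, a regulator that shortens G protein signals, fell in DC by 0.88 ± 0.11 (SE, n = 4 per group; limma adjusted p = 0.00027) and was higher in RC than in DC by 0.75 ± 0.11 (limma adjusted p = 0.0019). Crem, a cAMP-responsive transcription factor, fell by 0.58 ± 0.13 and was higher in RC by 0.73 ± 0.13 (limma adjusted p = 0.017 and 0.0086). The fall of Crem was lost without any one of CC 1, CC 2, DC 2, DC 3 or DC 4, and with CC 1 and CC 2 both left out.

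Grk5, a kinase that desensitises receptors, went the other way, at 8.81 ± 0.10 under CC, 9.48 ± 0.15 under DC and 8.76 ± 0.27 under RC (SD, n = 4; limma adjusted p = 0.0050 for DC against CC and 0.0063 for RC against DC). Its rise in DC was lost with CC 3 and CC 4 left out (0.58; limma adjusted p = 0.069). The adenylyl cyclase gene Adcy9 fell by 0.76 ± 0.09 in DC (limma adjusted p = 0.00025). It remained at -0.47 ± 0.09 in RC against CC (limma adjusted p = 0.034), a call lost without any one of CC 1, CC 2, CC 3, CC 4, RC 1 or RC 2. Prkar1a, a regulatory subunit of protein kinase A, was higher in RC than in DC by 0.51 ± 0.09 (limma adjusted p = 0.0071).

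Chm, the relative of Chml with the same role, did not pass in any comparison. It read 9.36 ± 0.09 under CC, 9.31 ± 0.19 under DC and 9.51 ± 0.27 under RC (SD, n = 4), and its RC against CC difference was 0.15, where Chml had 0.46. Nor did the subunit genes of the geranylgeranyl transferase pass in the fit over all rows and arrays. Rabggta was at 9.06 ± 0.03, 9.13 ± 0.15 and 9.04 ± 0.05 in CC, DC and RC, and Rabggtb at 9.49 ± 0.11, 9.11 ± 0.19 and 9.33 ± 0.18. For Rabggtb the DC against CC difference of -0.38 ± 0.11 had a limma adjusted p = 0.062. It passed with quantile normalization (0.032), with dim rows left out (0.034), without DC 1 (0.022) and without RC 3 (0.021). The differences between Chml and these genes were not tested.

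Of 13 genes of Rab prenylation and recycling, 1 rose and 1 fell in DC, 1 was lower in RC than in DC, and 0 passed for RC against CC (by limma; 2 at an unadjusted p under 0.05). The gene that rose was Fdps, which makes farnesyl diphosphate for both prenylation and cholesterol synthesis, with 1.01 ± 0.08 in DC against CC and -0.85 ± 0.08 in RC against DC (SE, n = 4 per group; limma adjusted p = 1.0e-05 and 9.9e-05). Zmpste24, a protease of prenylated proteins, fell by 0.79 ± 0.14 in DC (limma adjusted p = 0.0040) and was at -0.61 ± 0.14 in RC against CC (limma adjusted p = 0.076, and 0.041 with dim rows left out). The fall was lost with CC 3 and CC 4 left out (-0.68; limma adjusted p = 0.062). Its second, dimmer probe set gave -0.01 for DC against CC. Rce1, another protease of prenylated proteins, was at -0.17 ± 0.07 in RC against CC and did not pass.

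Of 35 Rab proteins and effectors of exocytosis, 3 rose and 0 fell in DC, 1 was higher and 3 lower in RC than in DC, and 2 were higher in RC than in CC. The 3 that rose were Mlph (0.79 ± 0.07), Sytl4 (0.73 ± 0.08) and Rab37 (0.66 ± 0.05), with SE, n = 4 per group and limma adjusted p = 3.3e-05, 0.00019 and 1.7e-05. Mlph and Sytl4 encode effectors of Rab27 proteins, and Sytl4 (granuphilin) sits on insulin granules. These 3 were also the ones lower in RC than in DC, by limma, with -0.41 ± 0.07, -0.83 ± 0.08 and -0.59 ± 0.05 (limma adjusted p = 0.0071, 0.00017 and 9.3e-05). With only DC and RC in the fit the call of Mlph was lost (limma adjusted p = 0.053).

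Rab3c was higher in RC than in both other conditions, as were Chml and Opn3, though its DC mean was not below its CC mean. It read 6.77 ± 0.08 under CC, 6.79 ± 0.10 under DC and 7.26 ± 0.19 under RC (SD, n = 4, with limma adjusted p = 0.032 against CC and 0.015 against DC). The first call was lost without any one of CC 1, CC 2, CC 3, CC 4, RC 1, RC 3 or RC 4, and the second without any one of DC 2, RC 1 or RC 4. Centring, quantile normalization and a fit of CC and RC alone also ended the first, and a fit of DC and RC alone the second. The rise of Mlph in RC against CC (0.38 ± 0.07; limma adjusted p = 0.033) held only without DC 1, DC 3 or DC 4 when single arrays were left out, and was lost with centring.

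**Figure D5:**
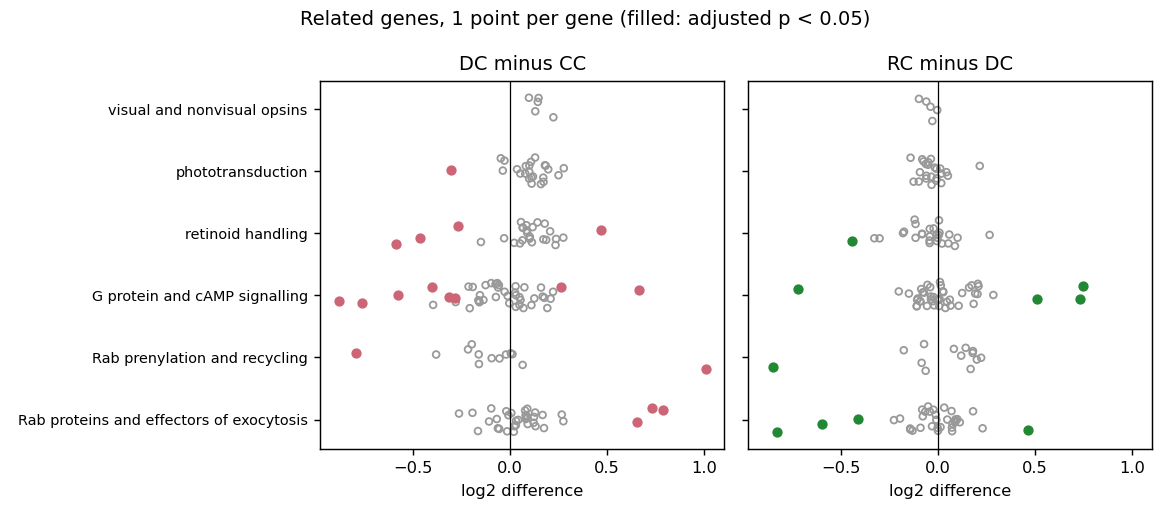
Log2 differences (horizontal axis) of the related genes for DC minus CC (left) and RC minus DC (right), 1 point per gene and 1 row per list, filled where limma gave an adjusted p under 0.05. The opsins and phototransduction genes lie between -0.30 and 0.28 in DC minus CC, and the filled points include Fdps at 1.01 and Rgs4 at -0.88.

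Markers of other cell types were followed beside the members. Of 9 photoreceptor and pigment cell markers and of 10 fibroblast, endothelial and immune markers, 0 passed in any comparison by limma (1 and 2 at an unadjusted p under 0.05 for DC against CC, 0 for the other comparisons). Of 7 exocrine and ductal markers 0 passed either (1, 0 and 0 unadjusted). The sums of log2 values over the photoreceptor and pigment markers ran from 62.1 to 63.8 in CC, 63.6 to 65.7 in DC and 63.1 to 66.3 in RC. Those over the fibroblast, endothelial and immune markers ran from 74.9 to 76.6, 76.3 to 78.2 and 75.8 to 78.8, and those over the exocrine and ductal markers from 48.3 to 49.3, 48.6 to 50.7 and 48.4 to 50.9.

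Among 5 markers of other islet cells, with sums of 48.0 to 49.1 in CC, 46.9 to 48.4 in DC and 48.5 to 49.7 in RC, 1 passed. The somatostatin gene Sst, made by delta cells, moved in the direction of Opn5, at 11.81 ± 0.19 under CC, 10.55 ± 0.63 under DC and 12.25 ± 0.16 under RC (SD, n = 4; limma adjusted p = 0.0066 for DC against CC and 0.0019 for RC against DC). The first call of Sst was lost with CC 3 and CC 4 left out. Its part in the levels of Opn5, Opn3 and Chml was not tested. Of 12 beta cell markers, with sums of 140.6 to 141.0, 140.9 to 142.1 and 139.2 to 141.0, Nkx2-2 and Slc30a8 rose in DC (0.29 ± 0.07 and 0.31 ± 0.08, SE) and were lower in RC than in DC (-0.34 and -0.45). The DC call of Nkx2-2 was lost without any one of CC 1, CC 4 or DC 4 and its RC call without RC 1 or RC 4 or with only DC and RC in the fit. The DC call of Slc30a8 held only without DC 1, RC 3 or RC 4 when single arrays were left out, and its RC call was lost with only DC and RC in the fit. Centring ended both DC calls. The other 10 did not pass in any comparison in the fit of the deposited values over all rows and arrays. With quantile normalization Iapp passed as lower in DC than in CC (-0.20; limma adjusted p = 0.039).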

How the data were processed

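Biotin-labelled cDNA from total RNA of Min6 cultures had been hybridised to arrays, per the labels' protocols. The authors deposited 1 log2 value for each of 35556 rows on each of 12 arrays. The log2 scale was read from the range of the values; the sources used here do not give summarisation, normalization or genome build. No further normalization was applied. Precision is limited by the number of arrays. Rows were named through the platform annotation: 21789 carry 1 symbol, 1621 several and 12146 none. A total of 701 rows share their values with another row.

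All rows and arrays entered a linear model with a mean for each condition in limma 3.58.1 in R 4.3.3 (lmFit, contrasts.fit, eBayes; 9 residual degrees of freedom; two-sided), with Benjamini-Hochberg adjustment over all rows of a comparison and a threshold of 0.05. It was tested on simulated data. Members and lists were chosen with earlier results of these data known. For a listed gene with several rows the one with the highest mean was used. Named were the members, all measured opsins, Chm, Rabggta and Rabggtb, per list and comparison up to 4 called genes of largest difference (or the 2 of smallest p), called neighbours of the loci, and the 5 most correlated genes per member (olfactory receptor, microRNA, small nucleolar, clone-named and predicted genes left out). Cell type markers, Kmo, Adgrf4 and second probe sets were added after their values were seen. Alternatives were median centring, quantile normalization, fits of 2 conditions, a replicate block, a filter on dim rows, single arrays left out and, chosen after seeing the data, either pair of CC arrays left out. Some listed genes were not analysed here.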

Additional observations from a re-analysis of the deposited data

Results flagged for a closer look

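Of 171 sets of 4 arrays checked (57 genes named above in 3 conditions), 13 had 1 array standing apart from the other 3 by Dixon's criterion, where chance alone gives about 1 in 20. Opn3, Opn5 and Chml were not among them. RC 3 was the array in 4 of the 13, being the highest RC array for Opn1mw (7.55, the others at 7.16 to 7.21), Rcvrn (7.46, others 6.96 to 6.99), Rgr (7.78, others 7.19 to 7.25) and Mlph (9.43, others 9.32 to 9.33). CC 2 was the lowest CC array for Opn1sw (6.69), Rab37 (8.02) and Tac1 (5.78). CC 1 was the highest for Pde6b (7.71) and CC 3 the highest for Retsat (8.81). Among DC arrays, DC 4 was the lowest for Rdh12 (7.10), DC 1 the highest for Crem (8.79) and DC 2 the lowest for Calb1 (7.28). RC 4 was the highest RC array for Hs3st2 (10.64).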

How the results depend on the processing

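The 9 differences of Opn3, Opn5 and Chml kept their sign under all 19 alternatives each and moved by less than the residual SD of the gene. Part of this was fixed in advance. Fits of 2 conditions, the replicate block, the filter on dim rows and leaving out arrays of the condition not compared cannot change a difference of means. For Opn3 the residual SD, 0.22, includes the spread from DC 4, without which DC against CC moved from -0.22 to -0.04. Counts of called rows moved more. For RC against DC 462 rows passed with only the compared conditions in the fit. With CC 1 and CC 2 left out 991 rows passed for DC against CC and 23 for RC against CC, and with CC 3 and CC 4 left out 1568 and 18. With single arrays left out, 1549 to 3718 rows passed for DC against CC (lowest without DC 2, highest without RC 3), 522 to 2892 for RC against DC (without RC 1 and without RC 3) and 57 to 352 for RC against CC (without RC 1 and without DC 4). Centring moved the split for DC against CC from 823 higher and 1537 lower to 502 and 1698. Of the related genes, 0 passed for RC against CC by limma with either pair of CC arrays left out (17 and 28 at an unadjusted p under 0.05), and 0 to 5 with single arrays left out. Same-numbered arrays did not deviate together throughout (5 of 12 correlations over 0.1, from -0.36 to 0.47, and 2 of 12 arrays correlated best with their own number), so the numbers were not taken as pairs. The arrays numbered 1 did deviate together, at 0.18 for CC with DC, 0.47 for CC with RC and 0.32 for DC with RC. With the replicate block 68 rows and 2 related genes passed for RC against CC. Of 44 calls of named genes, 5 were lost with centring (Nkx2-2 and Slc30a8 for DC against CC, Exo1 for RC against DC, Mlph and Rab3c for RC against CC), 4 with quantile normalization, 8 with the replicate block (Rgs9, Rdh10 and Nkx2-2 for DC against CC, Nkx2-2 and Exo1 for RC against DC, Mlph, Rab3c and Wdr64 for RC against CC), 8 with only the compared conditions in the fit, and 15 and 12 with CC 1 and CC 2 or CC 3 and CC 4 left out. For DC against CC the first pair ended those of Rgs9, Rbp3, Rdh10, Crem, Prkar1a, Nkx2-2, Slc30a8, Wdr64 and Exo1, and the second those of Rgs9, Grk5, Zmpste24, Sst, Nkx2-2 and Slc30a8. For RC against CC either pair ended those of Retsat, Adcy9, Mlph, Rab3c, Wdr64 and Pld5. The filter on dim rows ended 0 of the 37 calls it left testable. Without detection calls, the levels of dim genes such as the other opsins have no lower bound to be set against.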
